A study of Mus musculus with 16 samples.

Results

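The genes described here are 42 glycolysis enzymes, glucose and lactate transporters, oxygen-sensing factors and targets of the hypoxia-inducible factors (HIF), picked by gene symbol from the 53342 genes of the deposited tables. All 42 symbols were found, and 41 of them were among the 16482 genes that passed the filter on low counts and were tested. RNA-seq was done on mouse LSK cells, the lineage-negative Sca1+ c-Kit+ fraction of bone marrow that holds the hematopoietic stem cells and multipotent progenitors. Each replicate had 3000 to 10000 cells sorted as negative for B220, CD3, CD4, CD5 and CD8 and positive for Sca1 and c-Kit. The wild-type PBS group (5 libraries) and the Gata2 +9.5(Ets)-/- PBS group (5 libraries) came from mice given PBS, the vehicle. The wild-type 5-FU group (3 libraries) and the Gata2 +9.5(Ets)-/- 5-FU group (3 libraries) came from mice given 250 mg/kg of 5-fluorouracil, a drug that kills dividing cells, and were taken 10 days later. Day 10 is recorded for both PBS groups as well. All mice were C57BL/6J and 8 to 14 weeks old. The +9.5(Ets)-/- mutation is homozygous: an Ets motif in the +9.5 enhancer, which lies inside the Gata2 gene, carries a C-to-T transition. It is present in every cell, so an effect on the sorted cells cannot be told apart from one on their surroundings. The labels do not say whether replicates were separate mice, so p-values measure only the spread between these libraries.

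Glycolysis splits glucose into pyruvate in a chain of enzymes: transporters bring glucose in, hexokinases trap it, phosphofructokinases commit it, and lactate dehydrogenase (LDH) turns pyruvate into lactate, which monocarboxylate transporters carry across the membrane. Pyruvate dehydrogenase kinases (PDK) hold pyruvate back from the mitochondria. When oxygen is low, prolyl hydroxylases and VHL stop marking the HIF proteins for destruction, and HIF switches on much of this chain together with genes of mitophagy and collagen processing. Hematopoietic stem cells live in marrow with little oxygen and are known for leaning on glycolysis while at rest.

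HIF binds a short core, and promoters are printed for that reason. Shown are 6 of the 8 genes past the threshold, those with the smallest p in the 5-FU comparisons; Slc16a1 and Ankrd37, whose windows held 4 matches each, are left out. Each run is the 250 bases upstream of a RefSeq start site on GRCm38.p6, written 5′ to 3′ on the gene's strand, with capitals on every ACGTG or GCGTG on either strand (read as CACGT or CACGC on the printed strand). CACGTG holds a match on both strands and counts as a pair.
Ldhb (chr6:142507958-142508207, minus strand): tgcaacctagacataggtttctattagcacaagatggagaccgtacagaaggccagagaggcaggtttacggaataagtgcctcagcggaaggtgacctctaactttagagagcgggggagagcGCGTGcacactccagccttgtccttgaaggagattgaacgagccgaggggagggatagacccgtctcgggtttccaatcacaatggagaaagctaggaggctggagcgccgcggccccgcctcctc
Ldha start A (chr7:46845554-46845803, plus strand): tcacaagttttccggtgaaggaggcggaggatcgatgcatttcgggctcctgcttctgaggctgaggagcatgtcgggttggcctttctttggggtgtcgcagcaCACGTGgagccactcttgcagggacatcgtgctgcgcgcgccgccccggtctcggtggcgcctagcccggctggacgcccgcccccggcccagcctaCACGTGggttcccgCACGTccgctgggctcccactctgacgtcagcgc
Ldha start B (chr7:46846832-46847081, plus strand): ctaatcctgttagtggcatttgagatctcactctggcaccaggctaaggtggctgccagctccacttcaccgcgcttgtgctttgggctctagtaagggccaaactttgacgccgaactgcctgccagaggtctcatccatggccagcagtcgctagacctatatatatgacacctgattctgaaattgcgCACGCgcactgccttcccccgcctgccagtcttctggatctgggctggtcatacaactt
Hk3 (chr13:55021386-55021635, minus strand): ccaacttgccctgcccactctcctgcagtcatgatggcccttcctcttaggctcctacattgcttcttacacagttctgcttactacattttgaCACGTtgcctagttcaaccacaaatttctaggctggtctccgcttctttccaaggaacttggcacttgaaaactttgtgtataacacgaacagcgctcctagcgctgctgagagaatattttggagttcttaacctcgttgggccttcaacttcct
Bnip3 (chr7:138909507-138909756, minus strand): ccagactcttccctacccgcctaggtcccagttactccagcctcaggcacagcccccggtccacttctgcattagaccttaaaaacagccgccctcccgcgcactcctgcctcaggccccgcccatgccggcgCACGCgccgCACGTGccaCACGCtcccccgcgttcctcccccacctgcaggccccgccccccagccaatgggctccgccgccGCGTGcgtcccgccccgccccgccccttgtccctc
P4ha1 (chr10:59323046-59323295, plus strand): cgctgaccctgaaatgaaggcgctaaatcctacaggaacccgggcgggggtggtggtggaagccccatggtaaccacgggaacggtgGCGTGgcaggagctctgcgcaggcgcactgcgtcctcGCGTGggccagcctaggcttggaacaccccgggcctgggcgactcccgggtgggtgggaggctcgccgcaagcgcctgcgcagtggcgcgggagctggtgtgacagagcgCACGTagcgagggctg
Pfkp (chr13:6648772-6649021, minus strand): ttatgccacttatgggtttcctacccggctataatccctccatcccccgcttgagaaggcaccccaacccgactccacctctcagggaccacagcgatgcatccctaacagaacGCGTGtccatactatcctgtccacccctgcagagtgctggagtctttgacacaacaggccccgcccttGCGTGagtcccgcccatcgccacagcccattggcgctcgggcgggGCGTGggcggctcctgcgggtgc
Ldha had a second RefSeq start, shown as Ldha start B, with 1 match against 5 at start A. The Bnip3 window also held 5 matches, those of P4ha1 and Pfkp 3 each, and those of Ldhb and Hk3 1 each. The last 13 bases of the Bnip3 window and the last 6 of the Pfkp window lie in an exon of the GENCODE models. Promoter entries were found for 39 of the 42 genes, with 53 windows, and 42 of those windows (79.2%, in 34 genes) held at least 1 match. The same core was in 38.6% of all 32851 windows of this length and in 53.4% of the 14290 windows of tested genes. A match is a stretch of letters and was not tested as a binding site.

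Expected counts per library summed to between 19370000 and 28880000. Immunoglobulin genes took 3.83% to 53.65% of the counts in the PBS libraries, 0.04036% to 0.3443% in the wild-type 5-FU libraries, and 28.28%, 17.86% and 5.896% in the mutant 5-FU libraries 1 to 3. The 10 plasma cell markers summed to 30500 to 102000 TPM in PBS libraries of wild type and 17100 to 79700 in those of the mutant. After 5-FU the sums were 445 to 1680 TPM in wild type and 16200 to 76800 in the mutant, and no marker of that list was at 0 in a group mean. Of the gate genes, Kit averaged 261 ± 142 CPM (SD, n = 5) in wild-type PBS and 424 ± 160 (n = 3) in wild-type 5-FU, and Ly6a, which encodes Sca1, averaged 1298 ± 1432 and 197 ± 94.3 CPM. In the mutant, Kit averaged 204 ± 116 CPM (n = 5) under PBS and 150 ± 50.2 (n = 3) after 5-FU, and Ly6a 1183 ± 1361 and 603 ± 131 CPM; the Kit difference from wild type after 5-FU was -1.50 on the log2 scale (edgeR adjusted p = 0.172). Replicate 3 of each PBS group stood apart, with the highest immunoglobulin share (47.55% and 53.65%). It held the lowest CPM of its group for 23 of the 41 genes (56.1%, against 35.4% of all genes) in wild type and for 25 (61.0%, against 36.5%) in mutant. Because the sorted cells were read in bulk, fewer cells of a type and less RNA per cell cannot be told apart.

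Per length, the set was led by Ldha, Gapdh and Mif. Ldha, the muscle-type LDH subunit, averaged 459 TPM in wild type and 610 in the mutant under PBS, and 2257 and 1481 TPM after 5-FU. Gapdh, which makes the first NADH of the pathway, stood at 626, 761, 1674 and 971 TPM in the same order, and Mif, a cytokine gene and HIF target, at 566, 755, 1307 and 896. Individual libraries ranged widely, from 106 to 2403 TPM for Ldha, from 236 to 1830 for Gapdh and from 355 to 1554 for Mif.

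Below them came 5 more enzymes of the main chain, given in the same order of groups. Eno1, the main enolase, averaged 305, 439, 1154 and 627 TPM. Pkm, pyruvate kinase, averaged 317, 427, 1225 and 537 TPM, and Tpi1, triose phosphate isomerase, 282, 391, 861 and 457. Each of these was lowest in wild-type PBS and highest in wild-type 5-FU. Aldoa, the main aldolase, averaged 318, 378, 713 and 466 TPM, and Gpi1, which converts glucose 6-phosphate to fructose 6-phosphate, 193, 265, 558 and 252. For Gpi1 alone of these 5, the mutant 5-FU mean lay below the mutant PBS mean.

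Pgam1, phosphoglycerate mutase, averaged 178, 201, 560 and 234 TPM, and Pgk1, phosphoglycerate kinase, 122, 148, 367 and 209. Bnip3l, a mitophagy receptor, averaged 206, 243, 365 and 299 TPM. Hk1, the housekeeping hexokinase, averaged 39.6, 50.6, 278 and 69.8 TPM. It is among the 12 most abundant genes only by the mean of the 4 group means, through wild-type 5-FU; Ldhb, Pfkl and Pdk3 exceeded it in both PBS groups. At the other end, 4 of the 42 genes stayed under 1 TPM in every group mean, among them Adm, which was not tested and ran from 0 to 0.32 TPM over the 16 libraries. TPM is a share of all transcripts and moves with the immunoglobulin load, so the tests below used CPM, counts scaled by TMM to a fixed library total. On that scale Gapdh changed by 0.18 ± 0.20 (log2, SE) after 5-FU in wild type, with an adjusted p of 0.511 by edgeR's quasi-likelihood test.

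The first comparison asked what 5-FU did to these genes in wild-type LSK cells 10 days on. Ldha, the lactate transporter gene Slc16a1 and the phosphofructokinase gene Pfkp rose, and Ldhb, Bnip3, P4ha1 and Ankrd37 fell. That is 7 of 41 genes (17.1%), beside 14.9% of all tested genes, a share close to the background. By direction, 3 rose against 5.55% of all genes and 4 fell against 9.31%. The median log2 fold change of the 41 was 0.27, against -0.11 over all genes, and 26 of the 41 values were positive. With the immunoglobulin share as a covariate the median was -0.23 (-0.13 over all genes), and 15 values were positive.

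The pair of LDH subunits moved in opposite directions. Ldha read 753, 856, 484, 814 and 732 CPM in the wild-type PBS libraries 1 to 5 and 1343, 1433 and 1794 CPM in the wild-type 5-FU libraries 1 to 3. The groups did not overlap, and every treated library was above the highest PBS library. Ldha (chr7:46841475-46855627, plus strand, GRCm38) rose by 1.06 ± 0.24 on the log2 scale (edgeR's quasi-likelihood test, Benjamini-Hochberg adjusted p = 0.00967).

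Ldhb, the heart-type subunit, read 90.5, 101, 86.4, 106 and 118 CPM in wild-type PBS and 31.2, 34.1 and 34.6 CPM in wild-type 5-FU. The 3 treated libraries lay close together and far under all 5 PBS libraries. Ldhb (chr6:142490249-142507957, minus strand) fell by 1.59 on the log2 scale (SE 0.21, adjusted p = 0.000341), the smallest p of the 41 genes in this comparison. Both LDH calls held when any 1 library of the comparison was left out, and without replicate 3 of both PBS groups they were 0.95 (adjusted p = 0.00103) for Ldha and -1.64 (adjusted p = 0.000307) for Ldhb.

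Of the 4 transporters, Slc16a1, which encodes the lactate carrier MCT1, was the one past the threshold. Slc16a1 read 75.8, 61.1, 26.6, 86.0 and 82.9 CPM in wild-type PBS and 147, 162 and 178 CPM in wild-type 5-FU. No treated library overlapped a PBS library, and PBS replicate 3 was far under its group. The gene (chr3:104638668-104658462, plus strand) rose by 1.29 ± 0.35 (log2, adjusted p = 0.0238). The call was lost without wild-type 5-FU replicate 1, 2 or 3 (adjusted p = 0.0658, 0.0908 and 0.0692) or PBS replicate 2 (0.0504), while without replicate 3 of both PBS groups it was 1.09 (adjusted p = 0.00628). The glucose carriers Slc2a1 and Slc2a3 had values of 0.50 and 0.52, and the other lactate carrier, Slc16a3, of -0.17, all short of the threshold.

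In upper glycolysis, 8 of 10 genes had a positive value, with a median of 0.49, and Pfkp, the platelet-type phosphofructokinase, passed. Pfkp read 63.8, 57.4, 37.3, 57.0 and 64.0 CPM in wild-type PBS and 84.1, 91.9 and 117 CPM in wild-type 5-FU. All 3 treated libraries were above all 5 PBS libraries. Pfkp (chr13:6579768-6648777, minus strand) rose by 0.81 ± 0.22 (log2, adjusted p = 0.0236), and lost the call without wild-type 5-FU replicate 1, 2 or 3 (adjusted p = 0.0536, 0.0784 and 0.0968). Its exons share 748 bases with Pitrm1 on the other strand, and reads of the pair cannot be told apart where counting ignores strand.

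Hk1 showed the largest positive value of the set without passing. It read 95.6, 73.7, 34.9, 242 and 200 CPM in wild-type PBS against 364, 447 and 370 CPM in wild-type 5-FU. The PBS libraries split into 3 low and 2 high ones, and all 5 were under the treated ones. The difference was 1.61 ± 0.57 (log2, adjusted p = 0.0629). In lower glycolysis, 7 of 8 values were positive, with a median of 0.37, and beside the LDH pair none passed. Eno1 came nearest with 0.69 ± 0.25 (adjusted p = 0.0645). Hk1 and Eno1 are given here because of their values and lie outside the naming rule for this comparison.

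The other HIF targets ran the other way: 1 of 8 tested genes had a positive value, the median was -0.77, and 3 fell. Bnip3, a mitophagy receptor, read 36.5, 41.3, 49.5, 37.7 and 44.7 CPM in wild-type PBS and 28.3, 19.6 and 24.6 CPM in wild-type 5-FU. The treated libraries were all under the PBS ones. Bnip3 (chr7:138890836-138909519, minus strand) fell by 0.80 on the log2 scale (SE 0.20, adjusted p = 0.0166), and missed the threshold without wild-type 5-FU replicate 2 (0.121) or 3 (0.0506). Its exons share 504 bases with Gm45507 on the other strand.

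P4ha1, a prolyl hydroxylase subunit that modifies collagen, read 41.4, 36.9, 30.0, 46.7 and 49.6 CPM in wild-type PBS and 24.8, 22.0 and 26.9 CPM in wild-type 5-FU. The groups did not overlap, though PBS replicate 3, at 30.0 CPM, lay near the highest treated library. P4ha1 (chr10:59323296-59373304, plus strand) fell by 0.74 on the log2 scale (SE 0.19, adjusted p = 0.0191), a call lost without wild-type 5-FU replicate 1 (0.0814) or 2 (0.125) and with no filter on low counts (0.0601).

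Ankrd37, a small ankyrin-repeat gene known as a HIF target, was low throughout, at 3.00, 2.94, 8.52, 1.42 and 2.11 CPM in wild-type PBS and 1.15, 0.904 and 1.33 CPM in wild-type 5-FU. One PBS library, replicate 3, was far above the others. Ankrd37 (chr8:45996902-46005707, minus strand) fell by 1.66 on the log2 scale (SE 0.53, adjusted p = 0.0468). The change was -1.06 (adjusted p = 0.0917) without PBS replicate 3, and the call was also lost without wild-type PBS replicate 1 (0.0616) or 2 (0.0669) and without wild-type 5-FU replicate 1, 2 or 3 (0.133, 0.195 and 0.0897), with no filter on low counts (0.0728) and with only the groups compared in the fit (0.0871). Its exons share 349 bases with Lrp2bp and 57 with Ufsp2 on the other strand.

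**Figure D1:**
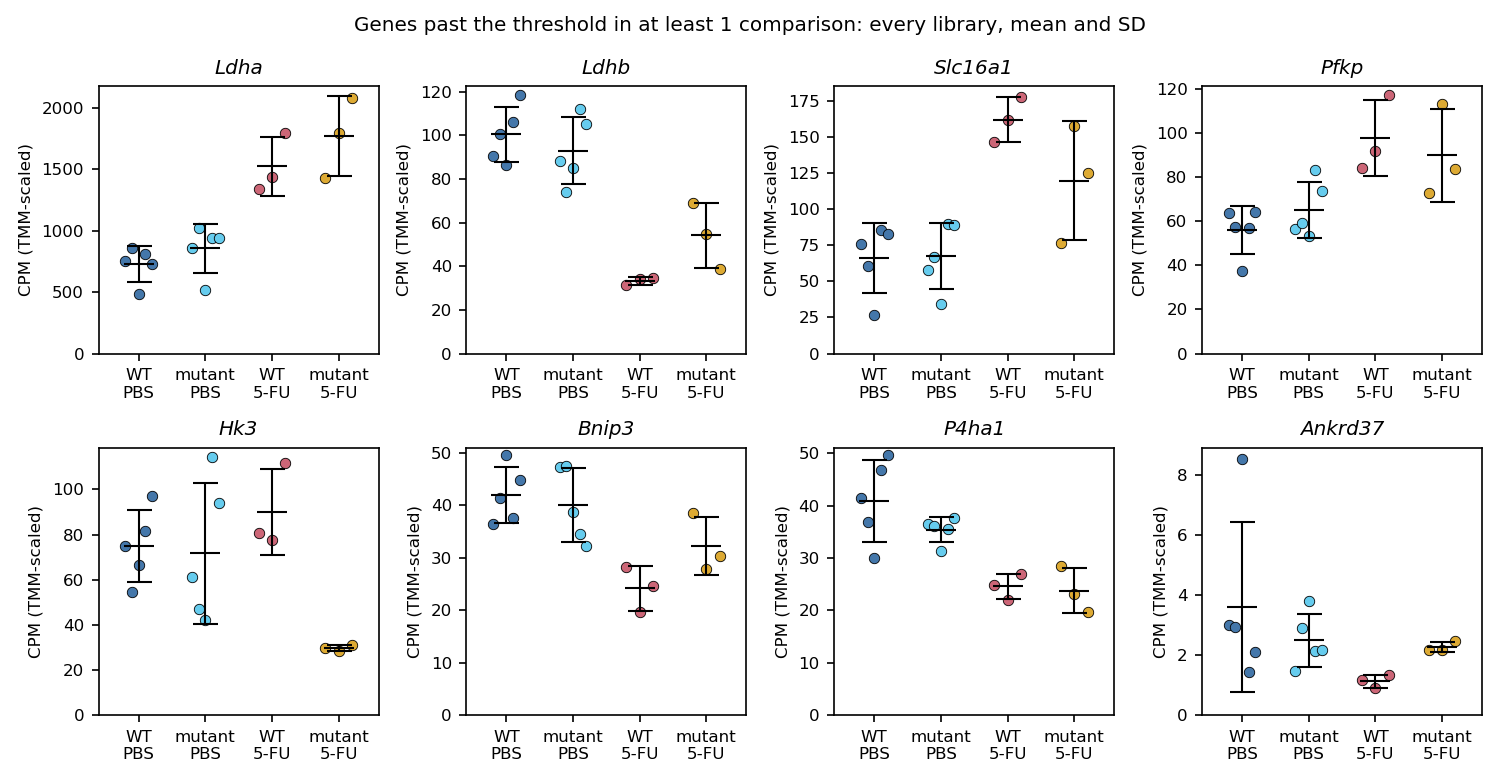
Expression in TMM-scaled CPM (vertical axes, each from 0) of the 8 genes past the threshold in at least 1 comparison, in wild-type (WT) and mutant libraries under PBS and after 5-FU; points are libraries, bars the mean and SD. Ldha was higher and Ldhb lower in all 3 wild-type 5-FU libraries than in every wild-type PBS library, and Hk3 was lowest in the 3 mutant 5-FU libraries.

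The oxygen-sensing genes and the pyruvate switches gave no call in wild type. Of 6 HIF factors and regulators, 4 had positive values and the median was 0.29. Hif1a, the oxygen-regulated subunit, averaged 50.4 ± 16.6 CPM (SD, n = 5) in wild-type PBS and 79.1 ± 16.0 (n = 3) after 5-FU. Arnt, its constant partner, read 31.7, 16.0, 18.4, 34.3 and 38.9 CPM in wild-type PBS and 43.1, 56.6 and 39.1 CPM in wild-type 5-FU, and the groups did not overlap (0.73 ± 0.29 on the log2 scale, adjusted p = 0.0914). Among the switches, Pdk3 gave 0.66 (adjusted p = 0.0508) and 3 of 5 values were positive. Without overlap of the 2 groups, 10 of the 41 genes were higher after 5-FU (24.4%, against 16.0% of all genes) and 4 lower (9.76%, against 15.8%).

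Other cell types moved in the same comparison. Of the marker genes, 9 of 10 plasma cell, 9 of 11 neutrophil and 7 of 11 monocyte and macrophage markers fell, as did 8 of 8 B cell, 7 of 10 T and NK cell, 6 of 9 erythroid and 3 of 7 eosinophil, basophil and mast cell markers. By contrast, 4 of 10 cell cycle genes, 3 of 7 megakaryocyte and platelet markers, 3 of 12 stem and multipotent progenitor markers, 1 erythroid and 1 endothelial and stromal marker rose, and 1 stem and progenitor marker fell. Neutrophil markers summed to 5980 to 19200 TPM in wild-type PBS and 169 to 3030 in wild-type 5-FU, and cell cycle genes to 267 to 1500 and 2540 to 3380 TPM. Megakaryocyte and platelet markers, beside which the rise of the platelet-type Pfkp stands, summed to 53.0 to 107 and 416 to 549 TPM. The part of these in the changes above was not tested. The immunoglobulin shares of the wild-type PBS (6.718% to 47.55%) and 5-FU libraries do not overlap, so share and treatment cannot be told apart there. With the log2 share as a covariate, the genes called above all lost the call by edgeR. Ldha was then at 0.54 ± 0.56 (adjusted p = 0.677) and Ldhb at -1.91 ± 0.44 (0.13). Their SEs were 0.24 and 0.21 without the covariate. Some sample codes have no leading zero, a label of unstated meaning. In wild-type PBS these are replicates 4 and 5 only. Among such libraries Ldha was at 0.98, Ldhb at -1.75 and Ankrd37 at -0.65 (edgeR adjusted p = 0.294). With that writing as a covariate over all libraries, Ldha, Ldhb and P4ha1 kept the call and the other called genes lost it.

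After 5-FU in the mutant, measured against mutant PBS, Ldha rose and Hk3 fell. These 2 of 41 genes (4.88%) stand beside 2.2% of all tested genes (0.837% higher, 1.36% lower). The median of the 41 was 0.08, against -0.03 over all genes. Ldha read 856, 1023, 520, 937 and 941 CPM in mutant PBS and 1428, 1797 and 2082 CPM in mutant 5-FU. Every treated library was above every PBS library. The gene rose by 1.05 ± 0.24 (log2, edgeR adjusted p = 0.0275), and missed the threshold without mutant 5-FU replicate 2 (0.116) or 3 (0.187), or mutant PBS replicate 1 (0.0657).

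Hk3, the hexokinase known from myeloid cells, read 61.0, 46.8, 42.1, 114 and 93.9 CPM in mutant PBS and 29.9, 28.5 and 30.9 CPM in mutant 5-FU. The treated libraries were nearly equal and under all PBS libraries, which were spread widely. Hk3 (chr13:55005985-55021385, minus strand) fell by 1.27 on the log2 scale (SE 0.31, adjusted p = 0.0394). The call was lost without any 1 of the 3 mutant 5-FU libraries (adjusted p = 0.111, 0.171 and 0.163), without mutant PBS replicate 1 (0.0583), 4 (0.0761) or 5 (0.0792), and among libraries with a leading zero in the code (-0.78, adjusted p = 0.126). Neutrophil markers fell in this comparison too (5 of 11), from 5640 to 14800 TPM in mutant PBS to 8.42 to 344 in mutant 5-FU. After 5-FU in wild type, where 9 of 11 neutrophil markers fell, Hk3 was at 0.26 ± 0.29 (log2, edgeR adjusted p = 0.513). The part of neutrophil markers in the Hk3 values was not tested.

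Ldhb came next by p. It read 88.4, 74.0, 85.1, 112 and 105 CPM in mutant PBS and 68.8, 54.9 and 38.8 CPM in mutant 5-FU, with no overlap between the groups. The difference was -0.78 ± 0.20 (log2, adjusted p = 0.0543), and -0.83 (adjusted p = 0.0268) without replicate 3 of both PBS groups. Without overlap, 1 gene of the 41 was higher (Ldha, 2.44%, against 5.05% of all genes) and 6 were lower (Aldoc, P4ha1, Hk3, Car9, Ldhb and Egln1, 14.6%, against 4.94%). Slc16a1 was at 57.9, 67.2, 34.7, 89.8 and 89.2 CPM in mutant PBS and 76.4, 158 and 125 CPM in mutant 5-FU, which overlap (0.82, adjusted p = 0.31). Of the 8 other HIF targets 1 was positive, with a median of -0.28, and no target passed.

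**Figure D2:**
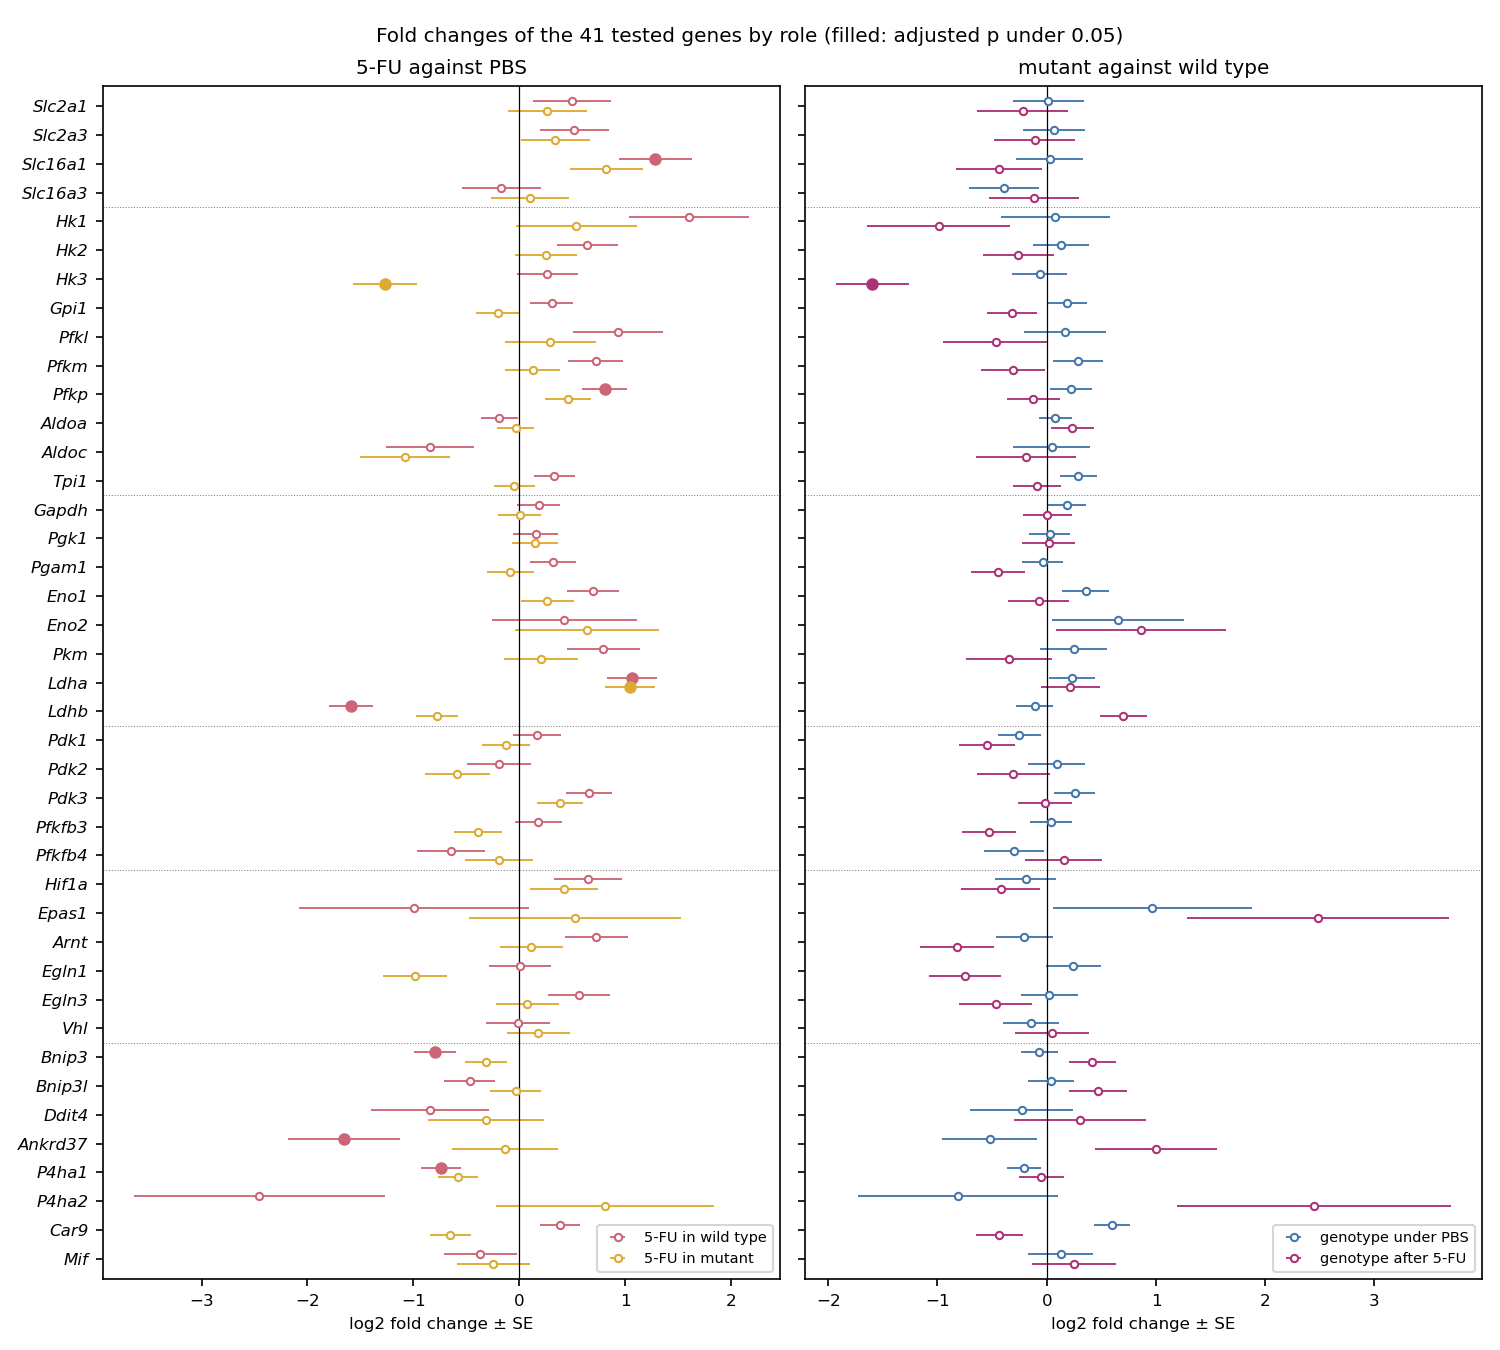
Log2 fold change with its SE (horizontal axes) of the 41 tested genes, ordered by role from transporters at the top to HIF targets at the bottom; left, 5-FU against PBS in each genotype, right, mutant against wild type under each treatment, filled where the adjusted p was under 0.05. Filled points are 7 for 5-FU in wild type, 2 for 5-FU in the mutant and 1 for genotype after 5-FU.

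Genotype after 5-FU, mutant against wild type among treated libraries, gave 1 call, Hk3. Hk3 read 80.6, 77.6 and 112 CPM in wild-type 5-FU and 29.9, 28.5 and 30.9 CPM in mutant 5-FU, so that every mutant library was under every wild-type one. It was lower in the mutant by a log2 fold change of -1.60 ± 0.33 (edgeR adjusted p = 0.026). That is 2.44% of the 41 genes, beside 1.95% of all genes (1.49% higher, 0.461% lower). The call was lost without any 1 of the 6 libraries (adjusted p = 0.0661 to 0.0975), and without replicate 3 of both PBS groups, which enter through the shared spread, it was -1.61 (0.0122). With the immunoglobulin share as a covariate it was -0.49 ± 0.56 (0.696), and with the code writing as a covariate -0.83 ± 0.28 (0.32). All wild-type 5-FU codes lack the leading zero and all mutant 5-FU codes have it, so that writing and genotype cannot be told apart here.

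Markers of other cell types also differed between the treated genotypes. Of the lists, 7 of 10 plasma cell, 5 of 8 B cell, 4 of 10 T and NK cell, 2 of 11 monocyte and macrophage and 1 of 9 erythroid markers were higher in the mutant, as was 1 of 7 eosinophil, basophil and mast cell markers, and 2 of 12 stem and multipotent progenitor markers were lower. Flt3, a receptor of multipotent progenitors and 1 of those 2, read 65.5, 71.3 and 90.5 TPM in wild type and 5.69, 7.68 and 7.51 TPM in the mutant. Of 11 neutrophil markers 0 passed by edgeR, with 3 at an unadjusted p under 0.05, 6 values positive and a median log2 fold change of 0.99. The list was split, with 5 values negative and a range of -3.58 to 6.08. Mpo read 541, 161 and 2552 TPM in wild type and 2.86, 112 and 67.6 TPM in the mutant, without overlap. Camp read 0.21, 0.1 and 0.11 TPM in wild type and 0.16, 16.9 and 0.07 TPM in the mutant. The neutrophil sums, 169 to 3030 TPM in wild type and 8.42 to 344 TPM in the mutant, overlap. The monocyte and macrophage sums were 16.5 to 120 TPM and 545 to 1100 TPM, most of it in the mutant from Ly6c2, at 1080, 702 and 416 TPM there and 45.3, 5.17 and 74.4 TPM in wild type. Over mutant 5-FU libraries 1 to 3, Ly6c2 fell as the plasma cell marker Jchain did (11860, 8168 and 1940 TPM). Most other markers of the list were highest in library 3, among them Csf1r (1.38, 14.3 and 30.7 TPM), so the sum did not follow them. The part of these markers in the Hk3 value was not tested. Exons of Hk3 share 34 bases with Unc5a on the other strand.

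The other values after 5-FU were short of the threshold. Ldhb was at 31.2, 34.1 and 34.6 CPM in wild type and 68.8, 54.9 and 38.8 CPM in the mutant, higher in every mutant library (0.70 ± 0.22, adjusted p = 0.112). Arnt read 43.1, 56.6 and 39.1 CPM in wild type and 24.3, 30.2 and 24.1 CPM in the mutant (-0.82 ± 0.34, adjusted p = 0.211). Upper glycolysis had 1 positive value in 10 (median -0.28) and the other HIF targets 6 in 8 (median 0.36). The median of all 41 was -0.12, against 0.07 over all genes. It was 0.223 with the immunoglobulin share as covariate (0.099 over all genes) and 0.128 with the code writing (0.049). Without overlap, 5 genes were higher in the mutant (Eno2, P4ha2, Bnip3l, Ldhb and Ankrd37, 12.2%, against 21.5% of all genes) and 7 lower (Pdk1, Arnt, Pfkl, Hk3, Pfkfb3, Gpi1 and Hk1, 17.1%, against 18.0%). This comparison shares its wild-type libraries with 5-FU in wild type and its mutant libraries with 5-FU in the mutant.

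Under PBS, genotype gave 0 calls among the 41 genes, beside 0.0182% of all genes. By edgeR 1 gene, Car9, had an unadjusted p under 0.05, and DESeq2 and limma-voom also called 0. Car9, a carbonic anhydrase and classical HIF target, read 10.5, 11.3, 9.16, 9.50 and 13.2 CPM in wild type and 18.3, 16.5, 17, 15.2 and 14.4 CPM in the mutant. Every mutant library was above every wild-type one. Among all genes, 0.322% were higher without overlap and 0.303% lower, and 0 of the 41 were lower. The difference was 0.60 ± 0.17 (log2, unadjusted p = 0.00245, adjusted p = 1), and exons of Car9 share 214 bases with Gm12454 on the other strand.

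Car9 lay in the reverse order after treatment, at 14.4, 11.7 and 15.9 CPM in wild-type 5-FU and 11.8, 9.92 and 9.41 CPM in mutant 5-FU, which overlap. Tpi1 (0.29 ± 0.17) and Eno1 (0.36 ± 0.22) were next under PBS, both with an adjusted p of 1. The median of the 41 was 0.04, against -0.02 over all genes. Replicate numbers paired the PBS groups, and with the pairing as a block 0 genes passed as well.

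The difference of the 5-FU responses (mutant minus wild type) also gave 0 calls of 41, beside 0.589% of all genes (0.558% higher, 0.0303% lower). By edgeR 5 genes had an unadjusted p under 0.05, as did 1788 of all 16482 genes tested. DESeq2 called 2 and limma-voom 4, and calls over all genes in those fits are not set beside them. The smallest p values belonged to Car9 (-1.03 ± 0.27, adjusted p = 0.106), Hk3 (-1.53 ± 0.42, 0.117) and Ldhb (0.81 ± 0.28, 0.245). Hk3 passed without mutant PBS replicate 3 (-1.72, adjusted p = 0.0368). For Ldha the difference was -0.02 ± 0.34, with responses of 1.06 and 1.05, and an SE of that size does not show equal responses. Most of the 41 values were negative (27, median -0.24, against 0.07 over all genes). This sign depended on the fit. The median was 0.185 with the immunoglobulin share as covariate (0.12 over all genes) and 0.014 with the code writing (0.051).

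The ratio of Ldha to Ldhb per length, looked at after the values were known and given as a description, put both subunits on 1 scale. In wild-type PBS it was 5.53, 5.02, 2.72, 4.89 and 4.41, and in mutant PBS 6.10, 8.27, 3.40, 6.13 and 6.15. After 5-FU it was 30.4, 32.6 and 36.3 in wild type and 13.6, 21.7 and 36.2 in the mutant. All 6 treated libraries were above all 10 PBS libraries, with means of 33.1 ± 2.99 (SD, n = 3) and 23.8 ± 11.5 (n = 3). The mutant 5-FU libraries had immunoglobulin shares of 28.28%, 17.86% and 5.896% in that order, and the part of this share in the ratio was not tested.

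The makeup of the hexokinase messages is likewise given as a description. Hk1 made up 44.4% ± 18.2 (SD, n = 5) of hexokinase TPM in wild type and 47.1% ± 14.3 (n = 5) in the mutant under PBS, and 74.6% ± 2.61 (n = 3) and 71.6% ± 8.89 (n = 3) after 5-FU. Hk3 made up 39.8% ± 7.39, 35.2% ± 3.99, 19.5% ± 4.63 and 16.1% ± 6.94. The Hk1 share did not overlap between wild-type PBS (16.7% to 64.0%) and 5-FU (71.7% to 76.8%) libraries, and overlapped in the mutant (25.8% to 61.7% and 61.6% to 78.6%). Within each PBS group it was lowest in replicate 3, the library with the most immunoglobulin. Of the other families, Aldoa was 97.5% to 98.8% of aldolase TPM in the group means, and Pfkl 52.6% to 59.3% of phosphofructokinase TPM.

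**Figure D3:**
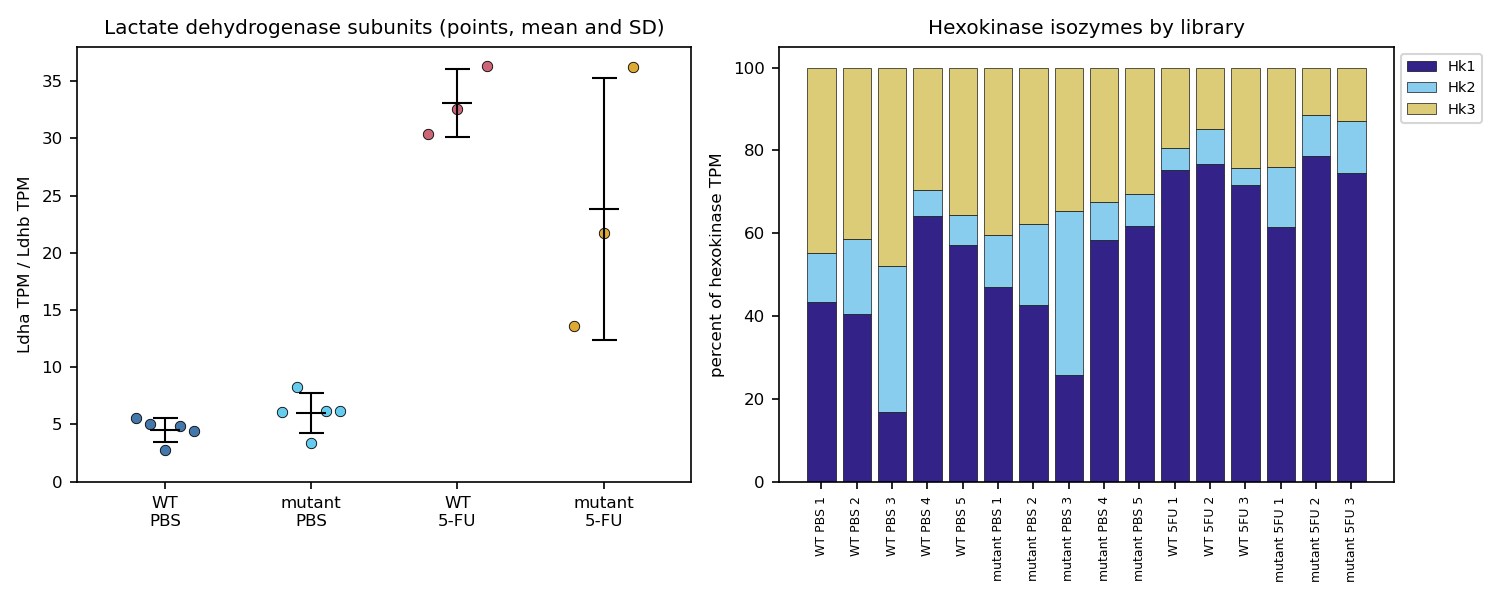
Left, ratio of Ldha to Ldhb TPM in each library with group mean and SD; right, percent of hexokinase TPM from Hk1, Hk2 and Hk3 in each library. The ratio was 2.72 to 8.27 in the 10 PBS libraries and 13.6 to 36.3 in the 6 libraries after 5-FU.

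Related genes outside the set were read from a pair of wider lists. Of 37 other glycolysis and pyruvate genes, 32 were tested, and 0 rose and 3 fell after 5-FU in wild type (9.38%, under the 14.9% of all genes), with a list median of 0.06. Pgam2, the muscle phosphoglycerate mutase, went from 32.7 to 0.329 CPM (-6.63 ± 1.33 on the log2 scale, adjusted p = 0.00654). Ldhc, the testis LDH subunit, went from 0.865 to 0.0215 CPM on 65 and 2 counts (edgeR adjusted p = 0.0309, ratio with a 95% counting interval of 7.87 to 249). Within wild-type PBS, Pgam2 and Ldhc were highest in replicate 3 (71.5 and 2.45 CPM) and lowest in replicate 5 (3.95 and 0.153 CPM). Those libraries had the highest and lowest immunoglobulin share of the group (47.55% and 6.718%). The part of that share in the falls was not tested.

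Eno3, the muscle enolase, rose in the mutant after 5-FU (1.32 ± 0.31, adjusted p = 0.0334) and was higher in mutant than wild type after 5-FU (16.1 against 4.70 CPM, 1.78 ± 0.36, adjusted p = 0.0242), 1 of the 32 in each. None of these lists passed under PBS by edgeR, where the smallest p values were those of Ldhd (-0.43) and Slc2a6 (-0.78) for glycolysis and Ppfia4 (-0.99 ± 0.37) and Loxl2 (-1.86) for HIF, all with an adjusted p of 1.

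Of 38 other HIF pathway and target genes, 33 were tested, and after 5-FU in wild type 1 rose and 5 fell (18.2%, near the 14.9% of all genes), with a list median of 0.10. Hmox1, heme oxygenase, went from 39.0 to 3.32 CPM (-3.55 ± 0.77, edgeR adjusted p = 0.00891), and Ppfia4 from 7.53 to 1.73 CPM (-2.11 ± 0.47, adjusted p = 0.0093). In wild-type PBS, Hmox1 was at 104 CPM in replicate 1 and at 18.8 to 25.2 in the other libraries. Bhlhe41, a clock-linked repressor, went from 10.5 to 0.111 CPM (-6.47 ± 1.56, edgeR adjusted p = 0.0156), and Ndufa4l2 from 0.81 CPM to 0 counts, at least 8.54-fold lower (adjusted p = 0.0172). Within wild-type PBS these 2 genes were also highest in replicate 3 (23.2 and 2.45 CPM) and lowest in replicate 5 (1.65 and 0.0918 CPM). The part of the immunoglobulin share in their falls was not tested. The remaining calls, named after their values were seen, were Vegfa, the vessel growth factor, which fell from 25.4 to 4.77 CPM (-2.41 ± 0.61, 0.0173), and Hif1an, which hydroxylates HIF and rose from 25.5 to 45.2 CPM (0.83 ± 0.27, 0.0488). In the mutant, Cox4i2, a respiratory chain subunit isoform, rose from 0.84 to 3.80 CPM (2.18 ± 0.50, edgeR adjusted p = 0.0313). Between genotypes after 5-FU 0 of the 33 passed by edgeR, beside 1.95% of all genes. An unadjusted p under 0.05 was found for 13 of the 33, and for 3036 of all 16482 genes tested.

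**Figure D4:**
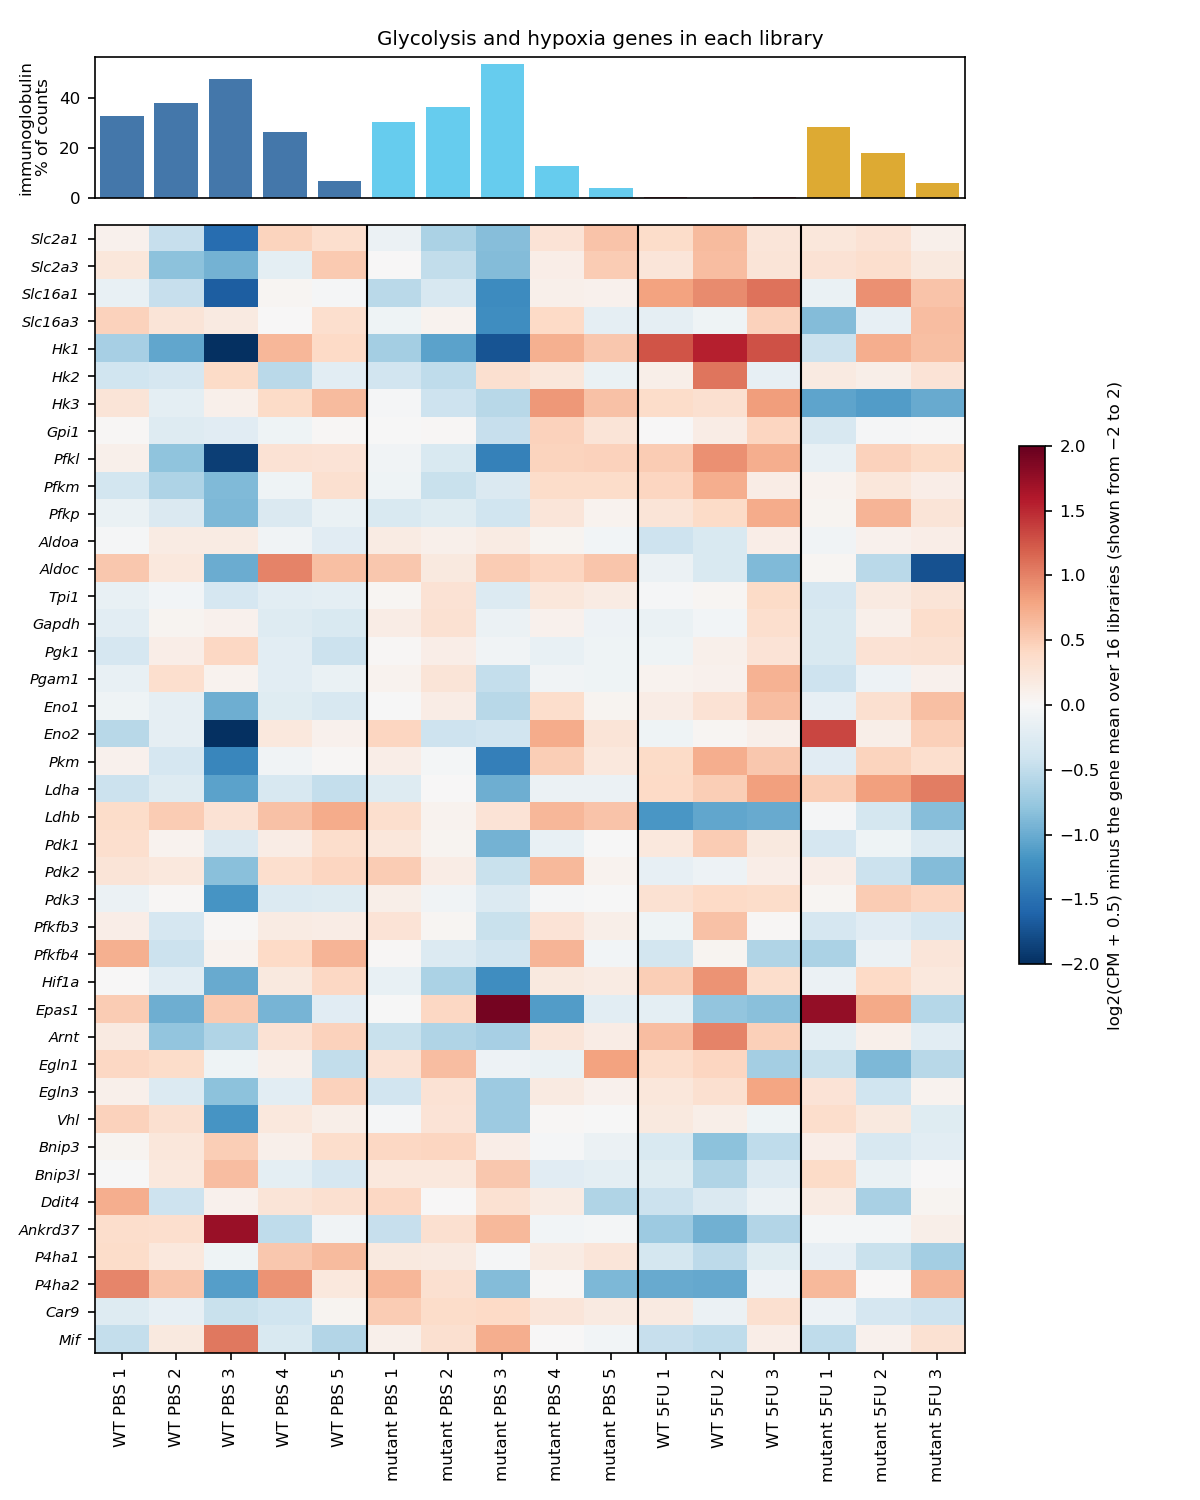
Heat map of log2(CPM + 0.5) minus each gene's mean over 16 libraries (colour, from -2 to 2) for the 41 tested genes, with the immunoglobulin percentage of counts above. Replicate 3 of each PBS group is blue for most glycolysis genes and carries the highest immunoglobulin share, 47.55% and 53.65%.

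Counting could have split reads of some genes. Expected counts more than 0.005 from a whole number were found in at least 1 library for 20 of the 42 genes and in all 16 libraries for 11. The pseudogene Ldha-ps2 took at most 0.102% of the sum with Ldha, Pgk1-rs7 at most 3.14% of the sum with Pgk1, Pgam1-ps2 at most 1.64% with Pgam1 and Eno1b at most 0.849% with Eno1.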

How the data were processed

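The authors deposited 1 table per sample with expected counts, TPM and FPKM per gene from RSEM 1.3.1 on mm10, per the file headers and the submitters' processing notes; FastQC 0.11.2 is also named there. FPKM was not used in any result. Whether counting used strand is not given in the sources used here. Members and lists were chosen with earlier results of these data known. Expected counts were rounded to whole numbers and genes kept by filterByExpr (minimum count 10). Libraries were scaled by TMM, and all 16 were fitted by group with edgeR 4.0.16 (robust quasi-likelihood, Benjamini-Hochberg adjusted p under 0.05 over all tested genes) in R 4.3.3. The SE of a log2 fold change was taken from its size and the F statistic (size over root F). A fold against 0 counts used a floor of 3 counts in each library, as CPM averaged over the group, and intervals cover counting error only. Scripts were tested on simulated data. Total counts were 19370000 to 28880000 per library.

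Named were the genes past the threshold in any comparison, the 3 smallest p values per comparison, the 12 highest mean TPM, and in each wider list up to 4 called genes, or else the 2 with the smallest p. One called gene of the wider glycolysis list is not reported here. Immunoglobulin genes are the V, D, J and C segments of Igh, Igk and Igl, and Jchain. Same-numbered libraries of the 2 PBS groups deviated together (correlations of 0.219, 0.331, 0.591, 0.412 and 0.668 over genes), so the numbers were taken as pairs there, as a reading from the data. Alternatives were other scalings (RLE, or without immunoglobulin genes), no count filter, DESeq2 1.42.0, limma 3.58.1 voom with sample weights, only the groups compared, a replicate block, the writing of the sample code or the immunoglobulin share as covariate, and leaving out each library. Fits within 1 code writing, and without replicate 3 of both PBS groups, were added after seeing the data.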

Additional observations from a re-analysis of the deposited data

Results flagged for a closer look

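In 9 of 82 groups of 5 PBS libraries, 1 library lay farther from the rest than Dixon's 95% limit for 5 values. Chance alone gives about 1 in 20 for independent groups, but these genes were read in the same libraries. The rule was not applied to all genes, so no background share stands beside the 9. Replicate 3 held the lowest CPM of its group for 35.4% of all tested genes in wild type and 36.5% in mutant. It held the highest for 34.3% and 34.6%. In wild-type PBS replicate 3, Pfkp was at 37.3 CPM against 57.0 to 63.9 in the other 4 libraries, Eno1 at 395 against 626 to 731, and Ldha at 484 against 732 to 856. In the same library Pdk2, a pyruvate dehydrogenase kinase, was at 13.3 CPM against 28.0 to 32.6, Pdk3 at 46.4 against 87.8 to 108, and Vhl, which marks HIF for destruction, at 12.9 against 32.4 to 41.1. In mutant PBS replicate 3, Pkm was at 333 CPM against 838 to 1210 and Ldha at 520 against 856 to 1020. These 8 values are all low and fall in the library with the highest immunoglobulin share of its group, 47.55% in wild type and 53.65% in mutant; the part of that share in them was not tested. In wild-type PBS replicate 2, Pfkfb3 was low at 10.6 CPM, against 13.8 to 15.3 in the others.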

How the results depend on the processing

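The count of the 41 genes passing was within 1.5 times of the value reported under RLE scaling and under scaling without immunoglobulin genes, in all 5 comparisons. Calls over all tested genes in each refit are not set beside the counts below. Those counts show how the calls depend on the fit, and are not a result about this set. For 5-FU in wild type (7 reported), 11 passed with DESeq2, 23 with limma-voom and sample weights, 3 with the code writing as covariate, 0 with the immunoglobulin share as covariate (edgeR in both), 11 within codes lacking a leading zero, 12 without replicate 3 of both PBS groups, and 2 to 9 when 1 library was left out. For 5-FU in the mutant (2 reported), 6 passed with DESeq2, 10 with limma-voom, 0 without the count filter, with only the groups compared, or within codes with a leading zero, 5 with the code writing as covariate, 4 without the PBS replicates 3, and 0 to 2 when 1 library was left out. For genotype after 5-FU (1 reported), 2 passed with DESeq2, 10 with limma-voom, 3 with only the groups compared, 0 with either covariate, 2 without the PBS replicates 3, and 0 in every fit with 1 library left out. For the difference of responses (0 reported), 2 passed with DESeq2, 4 with limma-voom, 1 without the PBS replicates 3, and 0 to 1 when 1 library was left out. Genotype under PBS gave 0 throughout. With the replicate block, 19 genes passed for 5-FU in wild type, 5 in the mutant, 3 for genotype after 5-FU, 1 for the difference of responses (Hk3, -1.45, adjusted p = 0.0153) and 0 under PBS; outside PBS the samples share only a number (correlations from -0.235 to 0.218). With the immunoglobulin share as covariate, Slc16a1 for 5-FU in wild type turned to -0.21 (adjusted p = 0.915) and Arnt for genotype after 5-FU to 0.69 (adjusted p = 0.562). Over the 19 results for named genes, 301 of 379 refits kept direction and side of the threshold, 54 lost the call, 22 gained it and 2 turned. The cause of these changes was not tested, and 3 libraries in each treated group limit the precision.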
